A study of Mus musculus with 2 samples.

Results

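Fat stored in a cell as triglyceride is released by lipases, and the genes described here are 10 lipases and proteins that control them: Lpl, Gpihbp1, Angptl4, Lipe, Pnpla2, Pnpla3, Mgll, Abhd5, G0s2 and Ces1d. They were measured in interscapular brown fat, a tissue that burns fatty acids to make heat. Members were chosen by the gene name printed in the array files, with Adpn read as Pnpla3 and Ces3 as Ces1d. That rule found 12 probes for 8 of the 10 genes. Pnpla2 and Gpihbp1 carry sequence accessions in place of a gene name in the files and were found through the files' cross-references, which added 4 probes, 1 of them for Lipe. All 10 genes were measured, among 27314 measured genes and transcripts, where measured means well above background in at least one genotype on both arrays.

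The samples were RNA from wild-type mice (WT) and from double-knockout mice (DKO) that lack Rora, the gene of a nuclear receptor that activates transcription, and a second gene. Both genotypes were C57BL/6 males aged 2 to 3 months, with 4 mice each, collected around circadian time 20. The label names no promoter or cell type for the loss, and the knockout is given as a plain loss of both copies. WT and DKO RNA were hybridised together on 2 arrays, with DKO in the red dye Cy5 on array 1 and in the green dye Cy3 on array 2. The sources used here do not say whether the RNA of the 4 mice was pooled or whether both arrays carried the same extracts. Each genotype therefore counts as 1 replicate, no test between genotypes was possible, and a difference has no replicate check. Ratios are log2 of DKO over WT, averaged over the arrays and given ± SD (n = 2 arrays), an SD that holds dye and measurement error and no spread between animals.

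Triglyceride reaches brown fat in lipoproteins and is cut at the capillary wall by lipoprotein lipase, which is held there by GPIHBP1 and inhibited by ANGPTL4. Inside the adipocyte, stored triglyceride is taken apart in steps by the lipases that Pnpla2, Lipe and Mgll encode, and adrenergic signals through cAMP drive that release. The protein of Abhd5 activates the first lipase of the chain and that of G0s2 inhibits it.

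No member passed the size rule used throughout. That rule asks for a mean of at least 2-fold, at least 1.5-fold in the same direction on each array, and that the higher genotype clears background on both. It called 0 of 10 members higher and 0 lower. Over all 27314 measured genes and transcripts it called 28 higher in DKO, or 0.103%, and 7 lower, or 0.0256%. With the scanner software's own ratios it again called no member, against 52 higher (0.19%) and 27 lower (0.0989%) of all measured genes. The split of all calls was 80.0% higher with the main processing and 65.8% with the software's ratios. The member farthest from equality was Pnpla3, lower in DKO on both arrays, and next was Lpl, higher in DKO on both. At a threshold of 1.5-fold on each array Pnpla3 alone of the 10 passed, as lower, beside 39 of all measured genes, or 0.143%. No member passed as higher at that threshold, beside 56 of all measured genes, or 0.205%.

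Direction was often not shared by both arrays. Above 0 on both were 3 of the 10 members, Lpl, Angptl4 and Abhd5, against 19.1% of all measured genes. Below 0 on both was 1 member, Pnpla3, against 17.9% of all. The other 6 had opposite signs on the 2 arrays, as did 59.5% of measured genes with a log2 average intensity of at least 10. Of these 6 members, Lipe lies below that intensity, at 9.35. With 2 arrays, opposite signs by themselves make the SD larger than the mean. Among the 10 genes, 8 read lower on array 1 than on the other, a share that was not counted over all measured genes. The median of the 10 members was 0.17, beside 0.00 for all measured genes. It was −0.07 on array 1 and 0.34 on array 2, so its sign turned with the array. For all measured genes the median was 0.0085 on array 1 and −0.0045 on array 2.

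**Figure D1:**
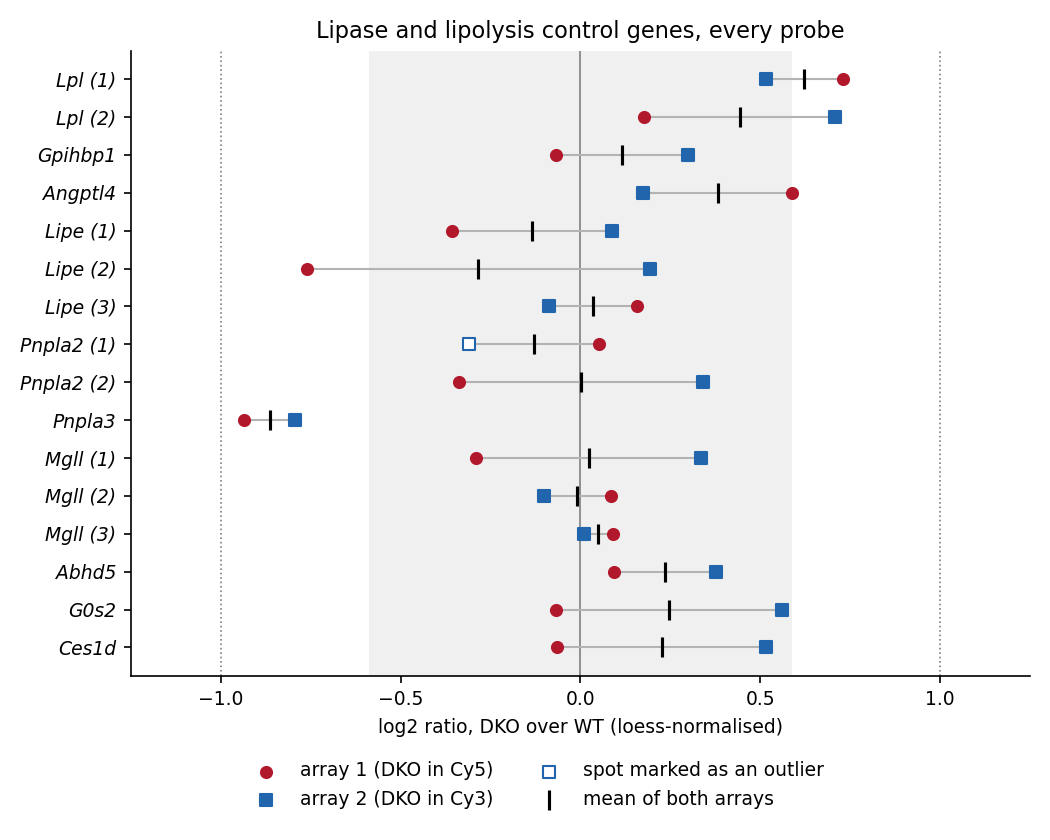
Log2 ratio of DKO over WT for every probe of the 10 genes (numbered within a gene from the brightest), with one point per array and a tick at their mean. The grey band spans 1.5-fold in either direction, dotted lines mark 2-fold, and an open square marks a spot flagged as an outlier; Pnpla3 has both points below the band, and most other probes have points on both sides of 0.

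Lpl encodes lipoprotein lipase itself. On array 1 its brighter probe had a normalised intensity of 9114 in DKO and 5497 in WT. On array 2 it read 8536 in DKO and 5965 in WT. DKO was therefore above WT in both dyes, and the DKO and WT values did not overlap. The share of all measured genes without such overlap was not counted, for this or any other member. Intensities were normalised within each array and not scaled between arrays. Overlap across arrays therefore also holds differences between the arrays, and genotypes are compared by the ratio within each array. The log2 ratio was 0.73 and 0.52 on these arrays, a mean of 0.62 ± 0.15 or 1.54-fold, and 85 of all measured genes and transcripts had a higher mean. The second Lpl probe read 3171 in DKO and 2804 in WT on the first array, and 3809 and 2330 on the other. Its mean was 0.44 ± 0.38, the same direction with a wider gap between arrays.

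Lpl is also abundant in muscle, so skeletal muscle markers were read beside it. Of 12 markers 11 were measured, with Myh4 as the exception. Eno3 and Mb were called higher in DKO and the other 9 were not called. Above 0 on both arrays were 10 of the 11, against 19.1% of all measured genes, and the median was 0.65, from 0.09 (Pvalb) to 1.21 (Eno3). The summed intensity of the list was 20565 in DKO against 14185 in WT on one array, and 23139 against 12718 on the other. Of 10 brown adipocyte markers, all measured, 2 were called higher, Dio2 and Elovl3, and 8 were not called. Above 0 on both arrays were 7, below 0 on both was 1, Cidea at −0.14 ± 0.02, and the median was 0.47. Ucp1, the uncoupling protein that defines the cell type, read 0.73 ± 0.0047 with a log2 average intensity of 14.8, while Prdm16 read −0.08 ± 0.29 and Cox8b 0.01 ± 0.30. In whole tissue, a change in the number of cells of a type and a change in RNA per cell cannot be told apart. The part of muscle or of brown adipocytes in the Lpl ratio was not tested.

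Gpihbp1 encodes the endothelial protein that carries lipoprotein lipase to the vessel lumen. Its probe read 1354 in DKO and 1420 in WT on array 1, and 1453 and 1180 on array 2. The genotypes overlapped, since the order of DKO and WT changed with the dye. The log2 ratio was −0.07 and 0.30, a mean of 0.12 ± 0.26. All 10 endothelial markers were measured, with a median of −0.09, 2 above 0 and 3 below 0 on both arrays.

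Angptl4 encodes the secreted inhibitor that unfolds lipoprotein lipase. Its intensity was 3299 in DKO and 2194 in WT on array 1, and 2906 and 2574 on array 2. DKO was higher in both dyes, as for 19.1% of all measured genes, and the 2 genotypes' values did not overlap. The ratios of 0.59 and 0.17 gave a mean of 0.38 ± 0.29 or 1.30-fold, which did not reach the size rule. The enzyme's own gene and this inhibitor of it were thus both above 0 on each array.

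**Figure D2:**
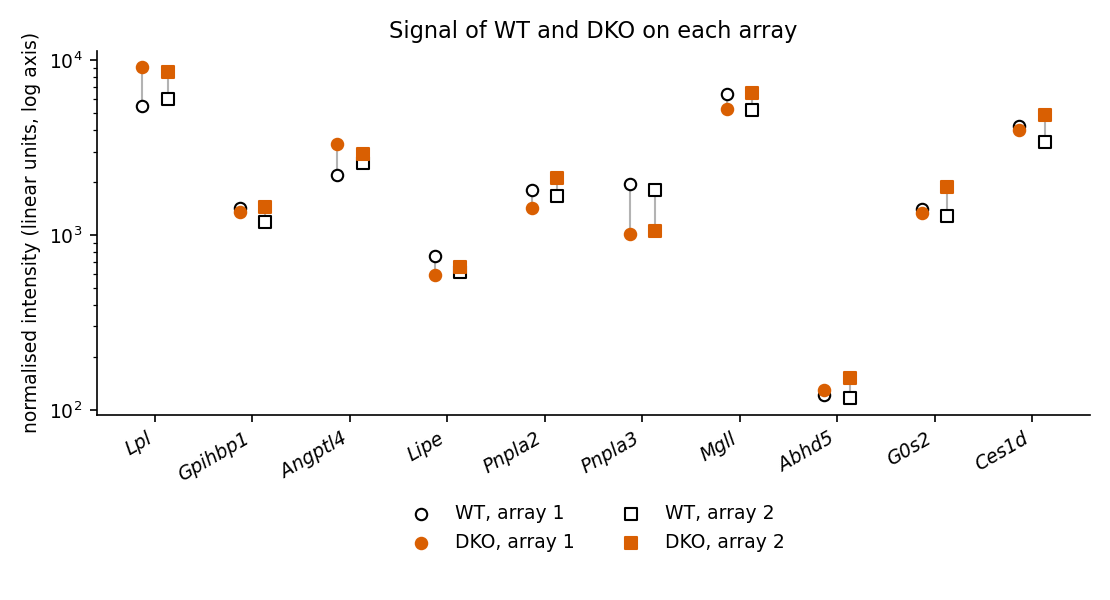
Normalised intensity on a log axis for the brightest measured probe of each gene, with open symbols for WT, filled symbols for DKO, circles for array 1 (DKO in Cy5) and squares for array 2 (DKO in Cy3). WT and DKO are joined within an array; Lpl and Pnpla3 are apart in the same direction on both, while G0s2 and Ces1d are apart on 1 array only. Intensities of different probes do not rank the genes.

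Pnpla2 encodes adipose triglyceride lipase (ATGL), the enzyme of the first cut. Its measured probe read 1430 in DKO and 1807 in WT on array 1, and 2109 and 1665 on the other. The 2 arrays gave opposite ratios, −0.34 and 0.34, and the mean was 0.00 ± 0.48. A far brighter Pnpla2 probe was left out, since its spot was marked as an outlier on array 2. Its intensities were 20846 and 20127 in DKO and WT on one array, and 19809 and 24543 on the other. With that spot kept, an alternative added after seeing the data, it would stand for the gene and read −0.13 ± 0.25. Neither probe separated the genotypes.

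Lipe encodes hormone-sensitive lipase, which acts mainly on diglyceride. The brightest of its 3 probes read 593 in DKO and 760 in WT on array 1, and 657 and 618 on the other. The ratios of −0.36 and 0.09 had a mean of −0.13 ± 0.31. A second probe gave −0.76 and 0.19, a mean of −0.28 ± 0.67. Both probes were below 0 on the first array and above 0 on the second, so the genotypes overlapped. The third, found through a clone name, was not well above background in either genotype on both arrays.

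Mgll encodes monoglyceride lipase, the last enzyme of the chain. Its brightest probe read 5259 in DKO and 6426 in WT on array 1, and 6524 and 5172 on the other. That is −0.29 and 0.34, with a mean of 0.02 ± 0.44. A second probe of like brightness gave 0.08 and −0.10, a mean of −0.01 ± 0.13. These 2 probes had opposite signs on each array. The other probe, a dim one, gave 0.05 ± 0.06.

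Pnpla3 encodes adiponutrin, a lipid droplet protein related to ATGL whose transcript is known to follow feeding and lipid synthesis. On array 1 its only probe read 1018 in DKO and 1947 in WT. On array 2 it read 1049 in DKO and 1819 in WT. WT was the higher genotype in both dyes, the values of the 2 genotypes did not overlap, and each genotype's 2 readings were close to each other. As for Lpl, overlap across arrays also holds differences between the arrays. The log2 ratio was −0.93 and −0.79, a mean of −0.86 ± 0.10, with WT 1.82-fold above DKO. Of all measured genes and transcripts, 20 had a lower mean. The software's ratios were −0.95 ± 0.18 and −0.86 ± 0.18 (± the software's error of 1 array), a mean of −0.91.

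The promoter of Pnpla3 is shown because this gene had the largest difference among the 10. These are the 250 bases before its RefSeq start, on the + strand of GRCm38.p6, chr15:84167566-84167815, all in lower case since none of the motifs searched occurs in them.
Pnpla3: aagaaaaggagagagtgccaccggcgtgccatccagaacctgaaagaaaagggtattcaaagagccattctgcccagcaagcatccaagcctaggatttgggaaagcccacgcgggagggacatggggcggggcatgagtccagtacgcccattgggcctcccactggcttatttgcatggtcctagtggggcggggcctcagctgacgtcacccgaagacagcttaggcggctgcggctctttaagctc
RefSeq promoter windows of 300 bases, which end 50 bases after the start, matched 6 of the 10 genes, with 8 windows (a pair each for Lipe and Mgll). They were searched on both strands for TAGGTCA and TGGGTCA, forms of the element that ROR receptors are known to bind, and for a direct repeat of AGGTCA with 1 base between, the form that PPAR receptors bind. Neither of the first pair occurred in the 8 windows, and 6.45% of all 32851 windows held at least one. The direct repeat occurred in none of the 8 either, and in 0.0396% of all windows. These letters are absent from these windows, and nothing follows from that about either factor. Lpl, Gpihbp1, Angptl4 and Ces1d had no window and were not searched.

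Ces1d encodes a carboxylesterase of the endoplasmic reticulum and droplet surface that hydrolyses triglyceride. Its probe read 4012 in DKO and 4198 in WT on array 1, and 4853 and 3390 on array 2. The genotypes lay close together on the first array and apart on the second, with ratios of −0.07 and 0.52 and a mean of 0.23 ± 0.41. Ces1 genes are close copies of each other, so what this probe reads of Ces1d alone is uncertain.

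Abhd5 encodes CGI-58, the coactivator of ATGL. It was the dimmest of the 10, with intensities of 130 in DKO and 122 in WT on array 1, and 152 and 117 on the other. DKO was above WT in both dyes, by little on the first array, and the values did not overlap. The mean was 0.24 ± 0.20, and the software's ratios, which carry no added signal offset, gave 0.40 ± 0.45. Among the 8 windows, AGGTCA, a half-site added to the search after seeing the data and contained in TAGGTCA, occurred only in that of Abhd5, against 16.3% of all windows. It lies on the opposite strand, starts 69 bases before the gene's start, and is in capitals as TGACCT in the 250 bases before it, on the + strand of GRCm38.p6 at chr9:122351366-122351615.
Abhd5: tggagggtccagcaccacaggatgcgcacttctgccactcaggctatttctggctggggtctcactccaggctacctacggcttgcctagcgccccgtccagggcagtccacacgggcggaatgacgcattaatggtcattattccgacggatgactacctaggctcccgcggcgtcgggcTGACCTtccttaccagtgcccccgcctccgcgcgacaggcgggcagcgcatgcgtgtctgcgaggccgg

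G0s2 encodes the inhibitor of ATGL. Its probe read 1337 in DKO and 1402 in WT on array 1, and 1890 and 1280 on the other. As with Ces1d, the genotypes were close on one array and apart on the other, where DKO was higher. The ratios of −0.07 and 0.56 had a mean of 0.25 ± 0.45. By the software's ratios the mean was 0.25, where that of Abhd5 was 0.40. Neither coactivator nor inhibitor reached the rule.

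The software's error of a ratio on 1 array allows the gap between arrays to be set against measurement error. At the probe that stands for the gene, that gap was larger than its error for 8 of the 10 genes and smaller for Lpl and Pnpla3. The share of all measured genes with such a gap was not counted, so whether 8 of 10 is unusual is unknown. For Pnpla3 it was 0.09 with an error of 0.25. For Lpl it was 0.23 with an error of 0.24, but 0.51 with an error of 0.24 at the second probe. For Mgll the second probe of like brightness had a gap of 0.21 with an error of 0.23, smaller where that of the first was larger. For G0s2 it was 0.61 with an error of 0.23.

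Most members were bright, with 8 of the 10 at a log2 average intensity of at least 10, a limit chosen after seeing the data. Over the 1308 measured genes that bright, the central 95% of means ran from −0.51 to 0.57. Pnpla3 lay below that range, Lpl above it, and the other 6 bright members within it. The place of Lpl depends on the probe, since its second probe (0.44) and the mean over its probes (0.53) lie within the range. Of the 8 bright members 2 were above 0 on both arrays, beside 19.2% of bright genes, and the 1.5-fold rule took Pnpla3 among 12 lower, or 0.917%. The median SD between arrays was 0.35 for the 8 bright members and 0.20 for all bright genes.

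**Figure D3:**
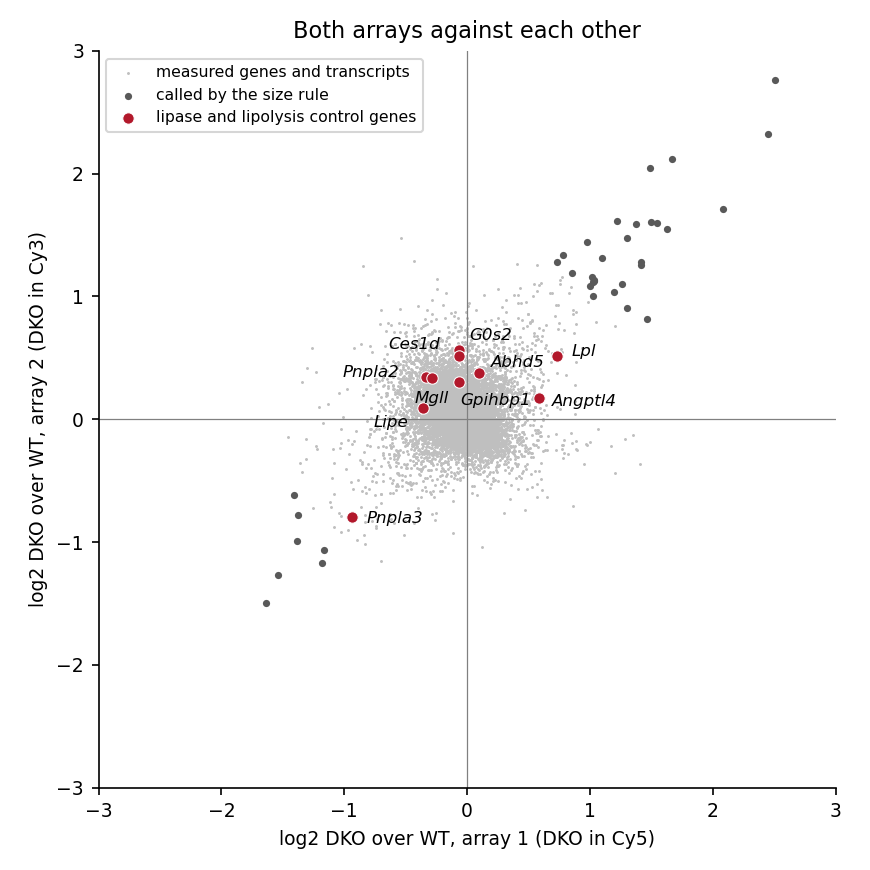
Log2 ratio of DKO over WT on array 1 (x axis) against that on array 2 (y axis), with each measured gene or transcript in light grey, called ones in dark grey and the 10 members in red. Lpl, Angptl4 and Abhd5 lie at upper right, Pnpla3 at lower left, and the other 6 at upper left, where the arrays disagree in sign.

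The wider machinery of lipolysis was read from 6 lists, with 91 genes measured beyond the 10. Of these, 2 were called higher and 1 lower, beside 0.103% and 0.0256% of all measured genes. The lists were chosen with earlier results of these data known, so these counts are no measure of an excess. On both arrays 25 of the 91 were above 0 and 20 below 0, beside 19.1% and 17.9% of all, and the median was 0.01. Of 16 genes that handle lipoprotein lipase and its substrates, 14 were measured and none was called, with a median of 0.00. The brightest were the apolipoprotein genes Apoc1 (0.31 ± 0.03), whose protein restrains the lipase, and Apoe (0.11 ± 0.20). Of 29 other lipases and esterases 22 were measured and none was called, with a median of 0.00. The brightest, the phospholipase gene Plaat3 and the phospholipase gene Ddhd2, read −0.51 ± 0.03 and 0.22 ± 0.04.

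Signals that start lipolysis were represented by 13 genes, of which 12 were measured and none called, with a median of 0.04. Prkar2b, a regulatory subunit of protein kinase A, read 0.04 ± 0.08. Prkaca, a catalytic subunit, read −0.33 ± 0.30. Of 15 genes of signals that restrain lipolysis 13 were measured, with a median of 0.02. One was called, Ptger3, the prostaglandin E2 receptor that lowers cAMP, which was lower in DKO at −1.40 ± 0.20, from −1.54 and −1.26. A second Ptger3 probe, dimmer, gave −0.43 ± 0.01, and the software's ratio for it was −0.91 ± 0.12.

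Lipid droplet proteins had all 15 genes measured and none called, with a median of −0.06, 5 above 0 and 6 below 0 on both arrays. Cidea, a droplet fusion protein of brown fat, read −0.14 ± 0.02 with a saturated spot, and Cidec, of the same family, read 0.32 ± 0.36. The list's median was −0.07 on array 1 and 0.17 on the other, so its sign turned with the array, and it was 0.09 with each array centred on its median without loess.

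The fate of released glycerol and fatty acids was read from 15 genes, all measured. Of these, 2 were called higher and none lower, with a median of 0.10. That median was −0.04 on array 1 and 0.21 on array 2, so its sign turned with the array. Gk, the glycerol kinase that returns glycerol to triglyceride, read 0.86 and 1.19, a mean of 1.02 ± 0.24. Of its other probes one gave 1.22 ± 0.48, a dim one gave 0.36 ± 0.07, and the last was not measured. Slc27a2, a fatty acid transporter and acyl-CoA synthetase, read 1.02 and 1.16, a mean of 1.09 ± 0.10. Its other probes gave 0.37 ± 0.08 and 0.06 ± 0.06 and were dimmer. Fabp3, a fatty acid binding protein abundant in muscle and brown fat and chosen here after its values were seen, read 0.84 ± 0.14 and was not called; the part of the muscle markers in it was not tested.

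**Figure D4:**
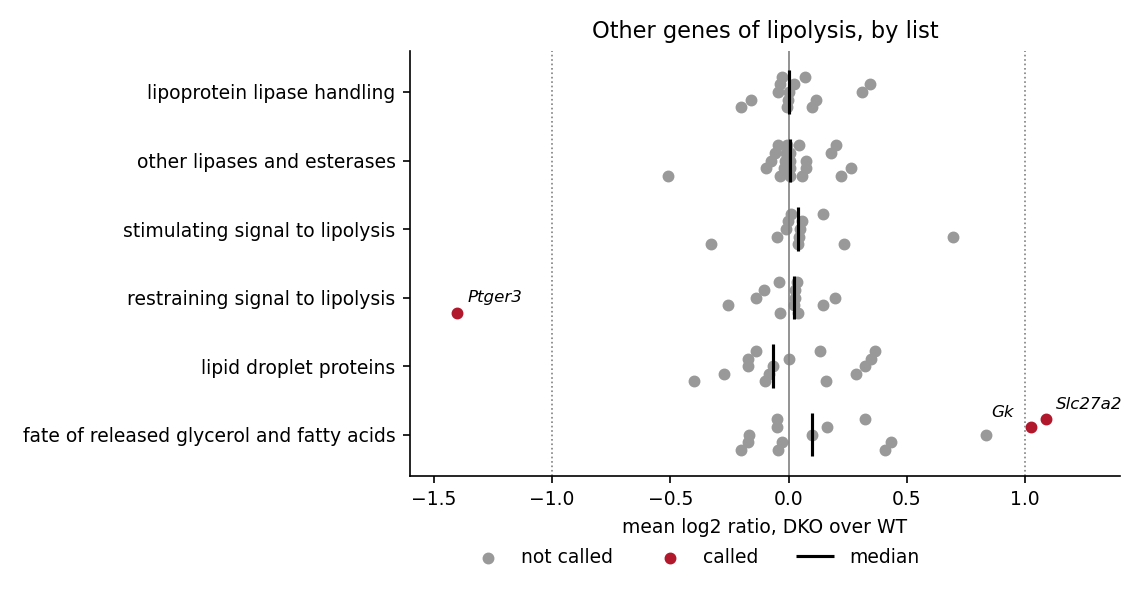
Mean log2 ratio of DKO over WT of both arrays for each measured gene of the 6 lists, spread vertically for legibility only, with the list's median as a bar, called genes in red and dotted lines at 2-fold. Medians lie between −0.06 and 0.10, and the called genes are Ptger3, Gk and Slc27a2.

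The genotype label was checked on Rora. Its brightest probe was lower in DKO on both arrays, at −0.38 ± 0.04, and at −0.96 ± 0.07 by the software's ratios. The other probe gave −0.47 ± 0.10, and −1.52 ± 0.14 by those ratios. Rora did not reach the size rule. The sources used here do not say which part of the gene is lost, and a probe outside that part would tell nothing about the label. Between 77.6% and 85.4% of probe spots were well above background, depending on array and dye.

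The members' values were set against other ways of processing. Across 10 other ways of processing that used both arrays, Pnpla3 ranged from −0.91 to −0.73, Lpl from 0.53 to 0.77 and Angptl4 from 0.38 to 0.52. The value nearest 0 for Pnpla3 came with each array centred on its median without loess. Pnpla2 ranged from −0.13 to 0.14 and had the opposite sign under 1 of them, with outlier-marked spots kept, and Lipe from −0.21 to −0.01.

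**Figure D5:**
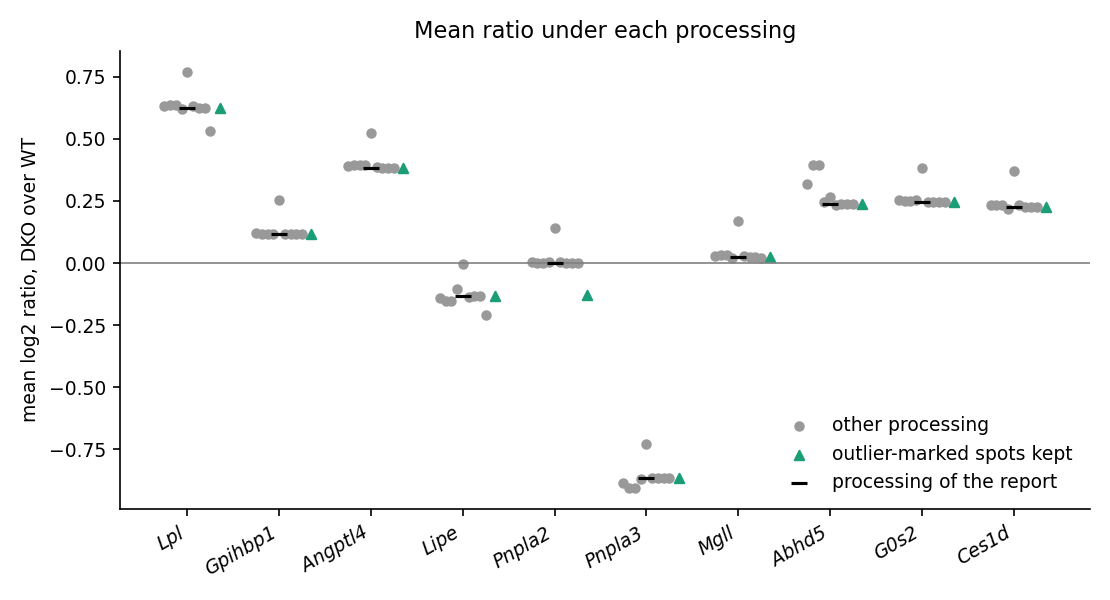
Mean log2 ratio of DKO over WT for each of the 10 genes under the processing of the report (bar) and 10 other ways of processing that used both arrays (grey points and a green triangle for outlier-marked spots kept). Pnpla3 stays between −0.91 and −0.73 and Lpl between 0.53 and 0.77, while Pnpla2 lies on both sides of 0.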

How the data were processed

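Brown fat RNA of both genotypes was hybridised to 2 Agilent 2-colour arrays with reversed dyes. The genes and lists were chosen with earlier results of these data known. The second lost gene is not reported here.

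The authors extracted the scans with Agilent Feature Extraction 7.5, per the submitters' processing notes. The deposited spot files hold, per the file headers, mean, median and local background intensity on a linear scale. The deposited log10 ratios of red over green were background-subtracted, spatially detrended and dye-normalised by the software, per the file headers, with an error of each. The p-value deposited beside each ratio covers measurement error on 1 array and was not used. The software's marks for outliers, for saturation and for a spot well above background (2.6 background SDs) were taken as deposited. Log2 ratios, with steps by the authors not stated, make up the series value table, with a median of 0 in both columns. It matched the software's red over green within 0.001 for 40962 of 41001 and 41101 of 41141 probe spots, so scale and direction are settled, and what later steps by the authors did to the centring is unknown. The labels give the starting RNA differently in 2 places.

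Mean signals were corrected by normexp against the median local background (offset 50) and loess-normalised within arrays, with limma 3.58.1 (R 4.3.3) and no weight for control spots. Normalised intensities include the offset, which pulls ratios of dim probes toward 0. Ratios were turned to DKO over WT and averaged over arrays. Outlier spots were left out (171 and 29), saturated spots kept (12 and 14) and replicate spots averaged, which left 40979 probes. The number of arrays limits the precision.

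A RefSeq table of GRCm38.p6, used for names only, matched 11387 probes by accession, 5772 by a cross-referenced accession, 3594 by a clone name, 2287 by symbol and 1299 through synonyms, and 16640 had no match and stayed under the files' own names. A gene is its measured probe of highest average intensity. Named are every member, called genes of each list or else its 2 brightest, and Rora; any further gene was picked with its values in view. The size rule in the dye direction called 1 measured gene and no member. Simulated arrays held 50 changed spots of each size. Only the fold thresholds of the rule were applied to them, without its background condition or the removal of outlier spots. These thresholds found 1 changed 2-fold, 27 changed 3-fold, 33 changed 4-fold and 46 changed 8-fold, and called 0 of 41334 unchanged spots. Changed spots were drawn from all but the dimmest probe spots, while most members were bright. The ratio noise was a fixed setting below the median SD between arrays of bright genes (0.20). Neither the recovery nor the 0 calls therefore carry over to the members. Other settings tried were a lower offset, ratios from the software or value table, median signals, centring, the loess spots, the dim filter, the probe rule, the thresholds and each array alone. Python 3.11.15, numpy 2.4.6, pandas 2.3.3 and matplotlib 3.10.9 were used.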

Additional observations from a re-analysis of the deposited data

How the results depend on the processing

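No member was called under any alternative run with both arrays or with 1, except that 1 was called lower, Pnpla3, at a 1.5-fold mean. The counts of all measured genes called (28 higher, 7 lower) depended more on the processing. They were 52 and 27 with the software's ratios and with the value table, 56 and 39 at a 1.5-fold mean, and 6 and 0 at a 3-fold mean. Offset 16 gave 13 lower, and genes of average log2 intensity of at least 10, an alternative added after seeing the data, held 10 higher and 1 lower. With 1 array alone the counts ran from 31 to 53 higher and from 8 to 37 lower, since a call then asks for no second array. With 1 array alone the median over the members ran from −0.0687 to 0.338, against 0.171 with both. It was 0.258 with median centring and 0.23 over the 8 genes matched by name. With median centring the list median was 0.0952 for lipoprotein lipase handling, 0.112 for the stimulating signal and 0.205 for the fate of glycerol and fatty acids (0.099 otherwise). With 1 array alone it turned sign for 5 of the 6 lists. It ran from −0.0016 to 0.034 for the stimulating signal, from −0.071 to 0.165 for droplet proteins, from −0.112 to 0.0877 for the restraining signal, from −0.0379 to 0.209 for the fate list and from −0.0587 to 0.0683 for lipoprotein lipase handling. For these medians the cause was not tested. Of 100 values of single members under the alternatives that used both arrays, 99 moved by less than the SD between arrays. Pnpla3 with median centring moved by more, to −0.73. The tally overstates stability, since the settings of the dim filter changed no member and the value table nearly repeated the software's ratios. Keeping outlier-marked spots changed Pnpla2 only. WT and DKO are already paired within each array, and the orientations have 1 array each. Depth in the sense of signal over background limits Abhd5 most, since its dim probe is shrunk by the offset.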

Other observations

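Other cell type lists were read for the tissue as a whole. The adipocyte list had all 8 genes measured and none called, with a median of 0.04. Of 7 genes enriched in white adipocytes 4 were measured, with a median of 0.00. One of them, the hormone gene Lep, was called lower in DKO at −1.08 ± 0.42. Of 10 macrophage markers 9 were measured and none was called, with a median of 0.03. Of 8 hepatocyte markers 7 were measured and none was called, with a median of 0.03. Among brown adipocyte markers, Dio2, which activates thyroid hormone, and Elovl3, a fatty acid elongase, were called higher at 1.89 ± 0.32 and 1.02 ± 0.02. Among the signals that start lipolysis, the stimulatory G protein gene Gnas, chosen after its values were seen, read 0.38 and 1.01 on the 2 arrays. Its mean was 0.70 ± 0.44, and it was not called. Other probes of Gnas, Fabp3 and the called cell type markers, where there are any, are not given here.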
